A study of Mus musculus with 4 samples.

Results

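The accessible chromatin around 10 mouse genes was examined: the 7 SLAM receptor genes Slamf1, Cd48, Cd244a, Ly9, Slamf6, Slamf7 and Cd84, and the 3 SAP adaptor genes Sh2d1a, Sh2d1b1 and Sh2d1b2. They were chosen by gene name, not by a measured value, though with earlier results of these data known. The choice was out of 21755 protein-coding genes annotated on the autosomes and the X chromosome. Each locus was the gene body plus 25 kb on either side. The data were DNase-seq, in which the enzyme DNase I cuts open chromatin and the cut sites are sequenced, from natural killer (NK) cells of female B6CASTF1/J mice aged 2 months. This strain is the first-generation cross of C57BL/6J and CAST/EiJ, so every cell carries 1 genome of each. The study consisted of 4 libraries, called replicates 1 to 4, all in 1 group with no treatment and no other cell type. Per the labels, each library has a separate biosample under 1 shared donor identifier, and neither a tissue nor a sort is named, so the spread between libraries may be technical.

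SLAM receptors are immunoglobulin-like proteins on blood cells, and most of them bind a copy of themselves on a neighbouring cell. CD48 and CD244 are the exception and bind each other. The cytoplasmic tails of most of these receptors carry tyrosine motifs that recruit small adaptors with an SH2 domain: SAP, encoded by Sh2d1a on the X chromosome, and in mice EAT-2 and ERT, encoded by the tandem pair Sh2d1b1 and Sh2d1b2. SAP brings the kinase Fyn to the receptor, and in NK cells the adaptors set whether contact with a SLAM ligand promotes or restrains killing.

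The sequences on which the comparisons below turn are printed 5′ to 3′ from GRCm38 (mm10), the C57BL/6J sequence, and not from the reads. The first set shows the Sh2d1b1 start region and an upstream region of the same gene, each beside its near-copy at Sh2d1b2, because the copies had peaks in different numbers of libraries. They lie at chr1:170277067-170277263, chr1:170232559-170232748, chr1:170270750-170270990 and chr1:170227761-170228000, all on the plus strand. Capitals mark matches to any of 14 fixed motifs, read on both strands. Those found here are AP-1 (TGANTCA), IRF (GAAANNGAA) and the TATA box, searched as the letters TATAAA.
Sh2d1b1 start: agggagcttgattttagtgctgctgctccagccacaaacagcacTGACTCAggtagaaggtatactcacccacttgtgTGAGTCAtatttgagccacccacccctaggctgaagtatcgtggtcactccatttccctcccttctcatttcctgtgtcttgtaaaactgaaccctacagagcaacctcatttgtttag
Sh2d1b2 start: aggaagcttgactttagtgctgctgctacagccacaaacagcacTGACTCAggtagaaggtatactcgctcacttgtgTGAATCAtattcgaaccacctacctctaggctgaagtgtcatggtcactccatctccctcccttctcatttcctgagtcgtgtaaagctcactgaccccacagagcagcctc
Sh2d1b1 upstream: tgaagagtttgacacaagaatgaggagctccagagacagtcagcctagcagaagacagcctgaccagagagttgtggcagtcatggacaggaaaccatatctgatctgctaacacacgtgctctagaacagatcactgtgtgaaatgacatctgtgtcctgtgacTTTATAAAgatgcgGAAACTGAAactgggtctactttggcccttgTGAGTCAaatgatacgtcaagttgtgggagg
Sh2d1b2 upstream: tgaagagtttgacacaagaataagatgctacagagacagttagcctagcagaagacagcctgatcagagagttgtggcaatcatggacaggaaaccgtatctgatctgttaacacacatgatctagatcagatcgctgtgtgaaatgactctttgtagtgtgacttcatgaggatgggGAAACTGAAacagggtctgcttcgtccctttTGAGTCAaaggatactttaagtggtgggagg

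The second set holds the stretch before the annotated 5′ end of 3 receptor genes with a peak in every library, at chr1:171559041-171559192 (Cd244a, plus strand), chr1:171607411-171607500 (Ly9, minus strand) and chr1:171917321-171917514 (Slamf6, plus strand). Capitals again mark motif matches: AP-1 in Cd244a, TATA in Ly9, and an adjoining CCAAT box, searched as the letters CCAATCA, and KLF (GGGNGTGG) match, both on the opposite strand, in Slamf6.
Cd244a start: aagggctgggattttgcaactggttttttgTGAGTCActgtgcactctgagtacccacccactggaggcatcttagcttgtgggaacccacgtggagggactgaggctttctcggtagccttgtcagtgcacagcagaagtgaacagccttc
Ly9 start: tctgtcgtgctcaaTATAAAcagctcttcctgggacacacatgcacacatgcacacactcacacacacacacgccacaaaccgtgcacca
Slamf6 start: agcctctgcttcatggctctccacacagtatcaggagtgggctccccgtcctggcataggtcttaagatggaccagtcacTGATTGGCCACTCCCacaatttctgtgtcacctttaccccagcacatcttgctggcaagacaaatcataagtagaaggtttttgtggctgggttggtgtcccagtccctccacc

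The third set shows the strongest distal region of the receptor cluster, in a Slamf7 intron (chr1:171643681-171643940, minus strand), the strongest distal region of the Sh2d1b pair (chr1:170255641-170255840, plus strand) with the part of the neighbouring Uhmk1 promoter that resembles it (chr1:170215398-170215520, plus strand), and the strongest distal region of the Sh2d1a locus (chrX:42540821-42541000, plus strand). Here capitals mark bases that lay inside a deposited footprint, a short protected stretch within open chromatin, in at least 3 of the 4 libraries.
Slamf7 intron: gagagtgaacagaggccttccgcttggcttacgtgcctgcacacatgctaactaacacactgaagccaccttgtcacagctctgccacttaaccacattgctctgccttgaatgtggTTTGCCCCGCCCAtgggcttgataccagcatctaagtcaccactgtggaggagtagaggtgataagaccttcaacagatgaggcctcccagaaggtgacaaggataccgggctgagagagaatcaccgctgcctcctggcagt
Sh2d1b pair distal: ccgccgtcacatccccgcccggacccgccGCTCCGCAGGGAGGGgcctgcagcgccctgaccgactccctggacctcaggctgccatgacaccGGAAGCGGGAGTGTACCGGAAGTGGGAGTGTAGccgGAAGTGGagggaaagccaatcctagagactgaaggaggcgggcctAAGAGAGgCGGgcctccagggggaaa
Uhmk1 promoter part: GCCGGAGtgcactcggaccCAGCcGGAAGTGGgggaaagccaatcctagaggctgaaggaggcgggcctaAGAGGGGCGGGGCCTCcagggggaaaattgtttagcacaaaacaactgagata
Sh2d1a distal: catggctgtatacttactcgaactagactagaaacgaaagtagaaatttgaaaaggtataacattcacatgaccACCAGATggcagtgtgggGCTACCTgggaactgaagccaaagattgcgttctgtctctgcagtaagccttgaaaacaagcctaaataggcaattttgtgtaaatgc

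Some facts of the libraries bear on every value below. The peak lists held 36247 to 69144 peaks, with the most in replicate 3 and the fewest in replicate 4, and no pair of libraries shared a peak with the same ends and the same signal. Replicate 3 stood apart: it held 22363 of the 32398 regions found in 1 library, and 77.2% of all regions found in all 4 libraries were highest in it. Signal is the authors' value per peak, whose scaling between libraries is not stated, and the read depth is unknown, so no counting interval is given. Mapping was to mm10 alone, and the effect of CAST/EiJ alleles on it was not tested. A weaker signal in a mixed population may mean fewer cells with the site open or less cutting in each cell, and these cannot be told apart. No condition was compared, and 4 libraries are too few for an exact sign-flip test to reach a p of 0.05, so values are described beside those of all genes or regions, without a test.

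Peaks of the 4 libraries that touched were merged into regions, and a region was called recurrent where at least 3 libraries had a peak. The member loci covered 613.01 kb in 4 blocks, since neighbouring loci overlap, and held 53 regions, each assigned to 1 gene. Of these, 30 were recurrent, which is 48.9 per megabase, and 13 of the 30 lay within reach of more than 1 member. All 4 libraries had a peak in 23 of the 53 regions (43.4%), against 34.7% of all merged regions, while 14 of 53 (26.4%) came from 1 library, against 41.5%. Of those 14, replicate 3 supplied 11. Without replicate 3, and with recurrent meaning at least 2 of the 3 libraries left, 31 regions were recurrent. Distal regions, those more than 1 kb away from the annotated 5′ end of every protein-coding gene, made up 22 of the 30 recurrent ones (73.3%). The share of all recurrent regions was 64.5%. The 22 include a region at other annotated transcript starts of Slamf7, and 21 were distal from every transcript start of a protein-coding gene.

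At their annotated 5′ ends, 6 of the 10 genes had a recurrent region within 1 kb: the receptors Cd244a, Ly9, Slamf6 and Cd84 and the adaptors Sh2d1a and Sh2d1b1. The share over all protein-coding genes was 50.3%. The same 6 genes had a peak there in all 4 libraries, against 47.6% of all genes, and the same 6 were called without replicate 3. A peak in at least 1 library was found at 9 of 10, Slamf7 being the exception, against 56.6%. With a window of 500 bp the count was 5, Cd84 dropping out, against 48.3%. When every annotated transcript start was used the count was 7, Slamf7 being added, against 54.7%. The shares that needed a recurrent region lay within 2 genes of the background, and the share with a peak in at least 1 library was above it. The signal was low: the mean start signal of a gene with a peak in all 4 libraries had a median of 4.87, and the 6 members lay between 0.697 and 2.14. That median covers genes of any CpG content, whereas the members were all poor in CpG, as described next.

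**Figure D1:**
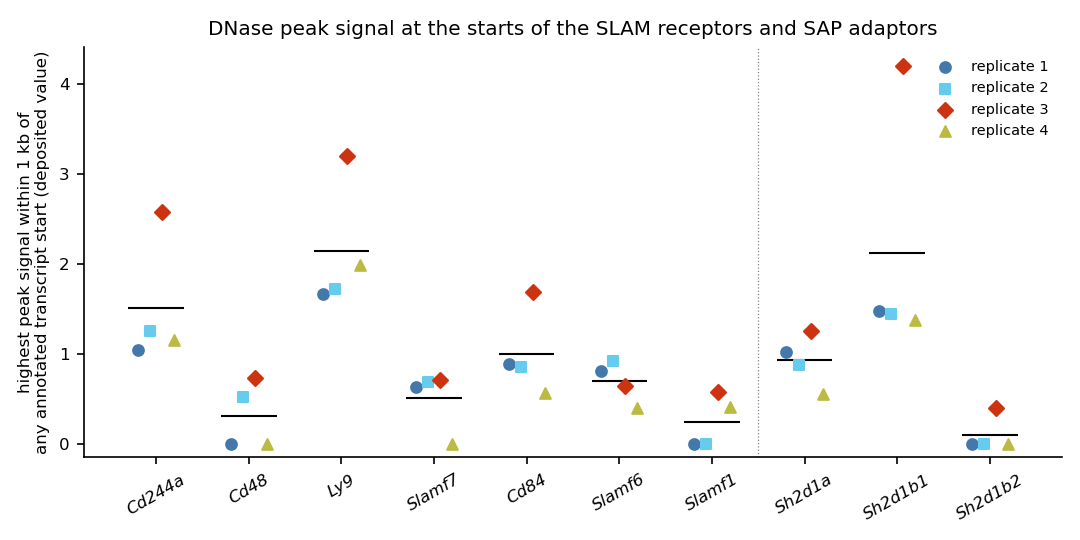
Highest deposited peak signal within 1 kb of any annotated transcript start (vertical axis, no stated unit) for each gene, receptors left and adaptors right of the dotted line; points are the 4 libraries and bars their means. Replicate 3 is highest for each gene except Slamf6, and Ly9 and Sh2d1b1 have the highest means, 2.14 and 2.12.

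All 10 starts were poor in CpG. The ratio of observed to expected CpG within 250 bp of the 5′ end ran from 0.104 at Cd84 to 0.329 at Ly9, below 0.6 in 10 of 10 members, and 50.6% of all genes lay below 0.6. Among such CpG-poor genes 19.2% had a recurrent region within 1 kb of the 5′ end, and among the members, all CpG-poor, 6 of 10 did. The median GC content was 48.1% for the members and 57.1% for all genes.

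Ly9 encodes CD229, a receptor that binds itself, and had the highest start signal of the receptors. The start region at chr1:171607241-171607500 had signals of 1.67, 1.72, 3.20 and 1.99 in replicates 1 to 4, a mean of 2.14 ± 0.716 (SD, n = 4), or 1.79 without replicate 3. Replicates 1, 2 and 4 lay between 1.67 and 1.99, and replicate 3 was above them. Of genes with a start peak in all 4 libraries, 21.6% had a lower mean. A footprint found in all 4 libraries, merged over chr1:171607390-171607431, spans the annotated 5′ end at 171607410, and another at chr1:171607333-171607356 lies just inside the gene. Upstream, chr1:171619021-171619335 had 0.787, 1.23, 1.30 and 0.951, and chr1:171610155-171610340 had 1.23, 1.20 and 1.83 in replicates 1 to 3 and no peak in replicate 4. An annotated Cd244a transcript runs through the whole Ly9 gene on the other strand, and DNase-seq does not tell which gene a region serves.

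Cd244a, the receptor for CD48, followed with 1.05, 1.26, 2.58 and 1.15, a mean of 1.51 ± 0.720 (SD, n = 4), or 1.15 without replicate 3. Replicates 1, 2 and 4 lay between 1.05 and 1.26, and replicate 3 was above them. The start region, chr1:171559041-171559320, held a footprint in all 4 libraries at chr1:171559188-171559214, across the 5′ end at 171559193. Inside the gene, 3 intronic regions centred 2787, 5283 and 7847 bp downstream of the 5′ end were found in all 4 libraries. The first of them, chr1:171561821-171562140, had 1.42, 1.40, 4.61 and 1.44 and was in replicate 3 the strongest region of the gene. The second, chr1:171564352-171564600, had 1.23, 1.27, 1.57 and 0.615. The third, chr1:171566941-171567140, had 1.42, 1.33, 1.98 and 0.798 and held a footprint of all 4 libraries at chr1:171567027-171567055.

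Slamf6 encodes Ly108, a self-binding receptor of lymphocytes, and had a wide and weak start region. The region, chr1:171917321-171918000, was 680 bp wide against a median of 260 bp for recurrent regions and had signals of 0.811, 0.926, 0.648 and 0.404, a mean of 0.697 ± 0.227 (SD, n = 4). The highest value was in replicate 2 and the lowest in replicate 4. The intronic region chr1:171921001-171921859, 859 bp wide, had 0.787, 0.806, 0.656 and 0.605, again highest in replicate 2. A recurrent footprint at chr1:171917407-171917437 overlaps the adjoining CCAAT and KLF matches in the Slamf6 sequence printed above, although each match by itself was touched by a footprint in 1 library. A weak region 48775 bp downstream of the 5′ end, chr1:171966221-171966360, had 0.447, 0.443 and 0.532 in replicates 1 to 3 and no peak in replicate 4. An annotated antisense gene, Gm37065, overlaps the start.

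Cd84, another self-binding receptor, had its start peak away from the annotated 5′ end. The region chr1:171840521-171840813 is centred 970 bp downstream of 171839697 and spans 3 annotated protein-coding transcript starts at 171840565, 171840621 and 171840633. Its signals were 0.893, 0.856, 1.69 and 0.567, a mean of 1.00 ± 0.480 (SD, n = 4), or 0.772 without replicate 3. Within 250 bp of 171839697 no base had a false discovery rate (FDR) of 0.05 or less in any library, whereas around 171840633 there were 310, 290, 429 and 77 such bases in replicates 1 to 4. The upstream start thus had no deposited low-FDR base, and the downstream starts had them in every library. RefSeq, however, places the Cd84 start at about 171839696, which is the upstream one. The intronic region chr1:171849522-171849840 was found in all 4 libraries (0.576, 0.936, 1.27 and 0.663), and the regions chr1:171845061-171845340 and chr1:171815821-171816100 were found in 3, with no peak in replicate 4.

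Slamf7 encodes a self-binding activating receptor of NK cells also known as CRACC, and it combined strong distal regions with a weak start. No library had a peak or a low-FDR base near the annotated 5′ end at 171653035. Other protein-coding transcripts start between 171648927 and 171649007, and RefSeq places its start at about 171649000. The region there, chr1:171648782-171649006, had 0.635, 0.685 and 0.714 in replicates 1 to 3 and no peak in replicate 4, with 92, 91, 96 and 0 low-FDR bases within 250 bp. The start signal was thus similar in the libraries that had it, replicate 3 included.

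The intronic Slamf7 region printed above was the strongest of the receptor cluster, with 3.17, 4.11, 6.39 and 3.23, a mean of 4.22 ± 1.50 (SD, n = 4). It lies 9225 bp into the gene from the 5′ end and 4987 bp from the nearest annotated transcript start. A footprint found in all 4 libraries, chr1:171643804-171643827, covers a GC-rich stretch and reaches into 1 of its 2 RUNX motif matches (TGTGGTT, both strands), at chr1:171643822-171643828. That match was touched by footprints in 3 libraries, and the other, at chr1:171643844-171643850, in 1. Downstream of the gene, chr1:171629241-171629500 had 2.77, 2.37, 6.29 and 1.71, with 2 footprints in 3 libraries each. Replicate 3 was highest in both regions. A weaker region upstream of the gene, chr1:171658821-171659020, had 0.799, 1.04 and 0.625 in replicates 1, 3 and 4 and no peak in replicate 2.

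Cd48, a GPI-anchored protein and the ligand of CD244, had weak and inconstant peaks at its start. The highest signal within 1 kb of the 5′ end was 0.524 in replicate 2 and 0.731 in replicate 3, and replicates 1 and 4 had none. Low-FDR bases within 250 bp numbered 0, 6, 311 and 0. By contrast, its intron held chr1:171699101-171699320, with 2.33, 2.75, 3.21 and 1.64, a mean of 2.48 ± 0.667 (SD, n = 4), 17201 bp from the 5′ end. Replicate 3 was 1.44 times the mean of the other libraries here, and 2 footprints of all 4 libraries lay in it, at chr1:171699215-171699244 and chr1:171699278-171699298. An upstream region, chr1:171677801-171677980, had 0.646, 0.624, 1.56 and 0.644, and it overlaps an intron of the annotated noncoding gene A630035G10Rik, which also covers the Cd48 start.

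Slamf1 encodes CD150, the founding member of the family, and had the least. Its start had a peak in replicate 3 (0.573) and replicate 4 (0.413), with 0, 0, 159 and 77 low-FDR bases. None of the 3 regions assigned to it was recurrent, and the 1 recurrent region within its locus was the one upstream of Cd84 at chr1:171815821-171816100.

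**Figure D2:**
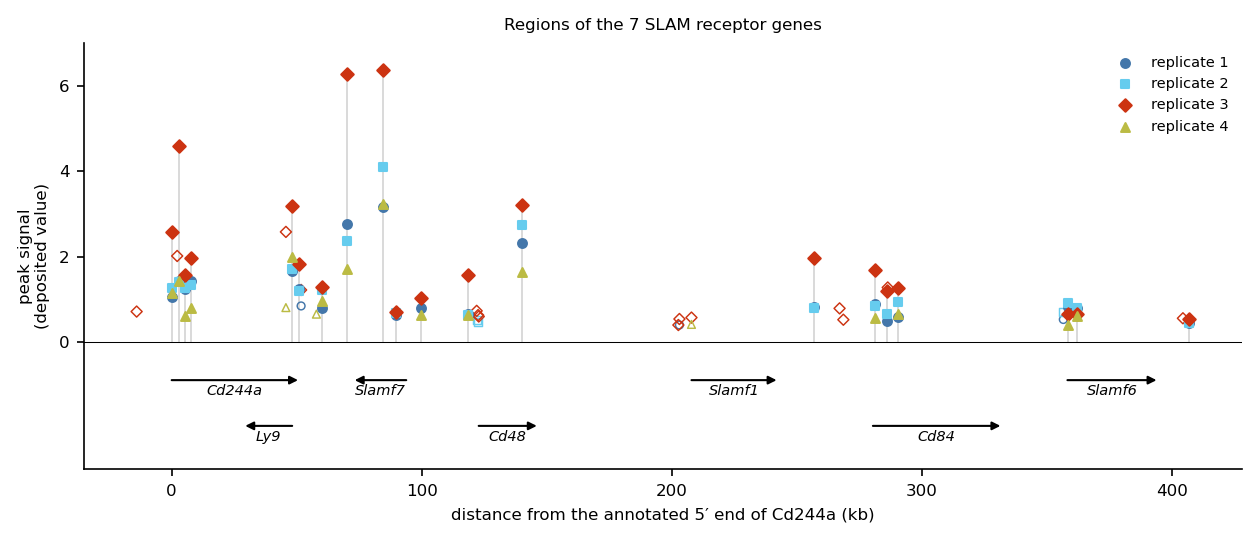
Deposited peak signal of every region of the receptor cluster (vertical axis, no stated unit) against distance from the 5′ end of Cd244a in kb; filled points are recurrent regions, open points are regions found in 1 or 2 libraries, and arrows are the genes with their direction. The tallest points lie in and beside Slamf7, where replicate 3 reached 6.39 and 6.29, and no recurrent region lies in the Slamf1 gene.

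Distal recurrent regions were found in every member locus, 10 of 10, against 59.2% of all genes. Counting shared regions for each gene, the number was 7 for Slamf7, 6 for Cd244a, 5 for Ly9, 4 for Sh2d1b2, 3 each for Sh2d1b1, Cd48 and Cd84, 2 each for Slamf6 and Sh2d1a, and 1 for Slamf1. The median was 3, against 1 over all genes, with a median locus of 75.1 kb against 67.4 kb. The 3 highest counts belong to neighbours whose loci overlap, and Cd48, Slamf1, Cd84 and the Sh2d1b pair share regions with neighbours too. The counts are thus not separate observations. With each region assigned to 1 gene, Slamf7 had 4 distal recurrent regions, Sh2d1b2 had 1 and Slamf1 had none. Of all genes, 97.5% had at most the 7 of Slamf7, which include the region at its other annotated transcript starts.

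Among the adaptors, Sh2d1b1, encoding EAT-2, had a start region in every library, chr1:170277061-170277320. Its signals were 1.48, 1.44, 4.20 and 1.37, a mean of 2.12 ± 1.39 (SD, n = 4), or 1.43 without replicate 3. Replicates 1, 2 and 4 were nearly equal and replicate 3 was far above them. Low-FDR bases within 250 bp of the start numbered 497, 501, 501 and 314 of 501 possible. Upstream, centred 6520 bp before the 5′ end, chr1:170270561-170271040 had 0.952, 1.18, 3.79 and 1.16. It held a footprint in all 4 libraries at chr1:170270845-170270855 and another in 3 libraries at chr1:170270923-170270942, which covers the IRF match at chr1:170270929-170270937. Another region, chr1:170273281-170273580, had 0.599, 0.493, 1.73 and 0.413.

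Sh2d1b2, encoding ERT, had almost none of this at its own start. Its start region, chr1:170232559-170232758, was a peak in replicate 3 alone, at 0.399, with 196 low-FDR bases there and 0 in the other libraries. The region matched the Sh2d1b1 start over 196 aligned bases with 91.3% identity, gaps not counted. Both AP-1 matches of the Sh2d1b1 start have a counterpart in it, the upstream one with the same letters in both genes and the downstream one spelled TGAATCA at Sh2d1b2. The upstream Sh2d1b1 region likewise had a near-copy before Sh2d1b2, chr1:170227761-170228000, with 87.9% identity over 240 aligned bases. That copy, which keeps the IRF and AP-1 matches but not the TATA matches, was a peak in replicate 3 alone, at 0.980. These paired sites were picked because the Sh2d1b2 copy had a peak in 1 library, so that number is no separate result. At each of them the Sh2d1b1 copy had a peak in all 4 libraries. A small region past the Sh2d1b1 start, chr1:170277580-170277650, aligned to the Sh2d1b2 side with 97.1% identity over 68 bases. This region had a peak in replicate 1 alone, though 71, 61, 71 and 0 of its 71 bases were low-FDR in replicates 1 to 4. Its copy had no peak. For the region at chr1:170273281-170273580 the best alignment on the Sh2d1b2 side covered 16 bases. Reads that fit both copies could be placed at either or dropped, no label or header says how such reads were treated, and their part in these values was not tested.

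The strongest region of all member loci lay between the paired genes, 21580 bp before the Sh2d1b1 start. It was chr1:170255641-170255840, with 3.64, 4.33, 6.90 and 3.34, a mean of 4.55 ± 1.62 (SD, n = 4). It overlaps an exon of Gm6345, annotated as a transcribed unprocessed pseudogene, so it counts as distal only because starts of pseudogenes were not used. The region aligned to the promoter of Uhmk1, a kinase gene upstream of Sh2d1b2, with 93.8% identity over 192 bases. The Uhmk1 promoter region, chr1:170215281-170215520, had 3.61, 4.20, 4.47 and 3.30, a mean of 3.89 ± 0.536 (SD, n = 4). Both copies thus had peaks in all 4 libraries, at similar levels in replicates 1, 2 and 4. Footprints of all 4 libraries lay at matching places in both. At each copy 1 such footprint covers repeats of the short word ggaag, and another begins with gaaggagg. Here too, reads that fit both copies cannot be assigned from the files. Uhmk1 was also the gene at a second, weaker promoter region, chr1:170214743-170215100, with 0.693, 0.997, 0.930 and 0.538. The other recurrent region assigned to Sh2d1b2, the intergenic chr1:170218561-170218800, had 0.846, 0.977, 1.87 and 0.394. A region in its intron, chr1:170235401-170235640, had peaks in replicates 1 (0.470) and 3 (1.21).

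Sh2d1a, encoding SAP, had a start region of 740 bp, chrX:42502321-42503060, that spans 5 of its 7 annotated transcript starts. Its signals were 1.02, 0.876, 1.25 and 0.557, a mean of 0.927 ± 0.292 (SD, n = 4), highest in replicate 3 and lowest in replicate 4. Low-FDR bases within 250 bp of the start at 42502760 numbered 476, 501, 501 and 169. An intronic region, chrX:42512722-42512834, had 0.635, 0.483 and 0.606 in replicates 1 to 3 and no peak in replicate 4. The distal region printed above, 38457 bp downstream of the 5′ end and inside an intron of Tenm1, had 0.952, 0.926, 1.52 and 0.461. Its footprint, merged over chrX:42540889-42540922 and found in 3 libraries, was touched by a match to a longer CTCF consensus that was added after the footprints had been seen.

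**Figure D3:**
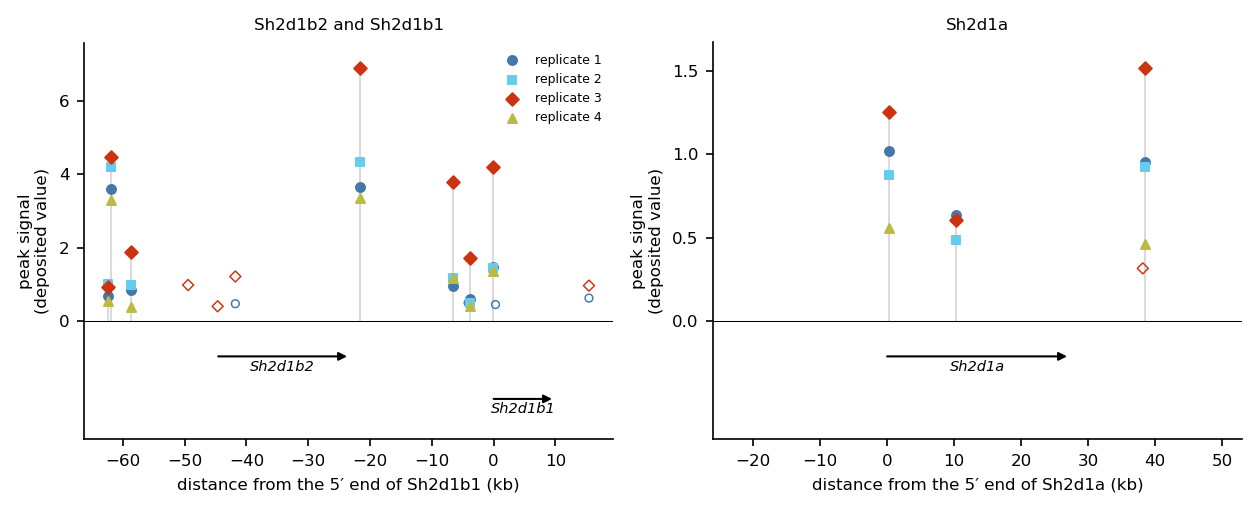
Deposited peak signal (vertical axes, no stated unit) of the regions of the Sh2d1b pair, against distance from the Sh2d1b1 5′ end in kb (left), and of Sh2d1a, against distance from its own 5′ end in kb (right); filled points are recurrent regions and open points are not. Around the Sh2d1b2 start the points are open and from replicate 3 or 1, while the Sh2d1b1 start has all 4 libraries.

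**Figure D4:**
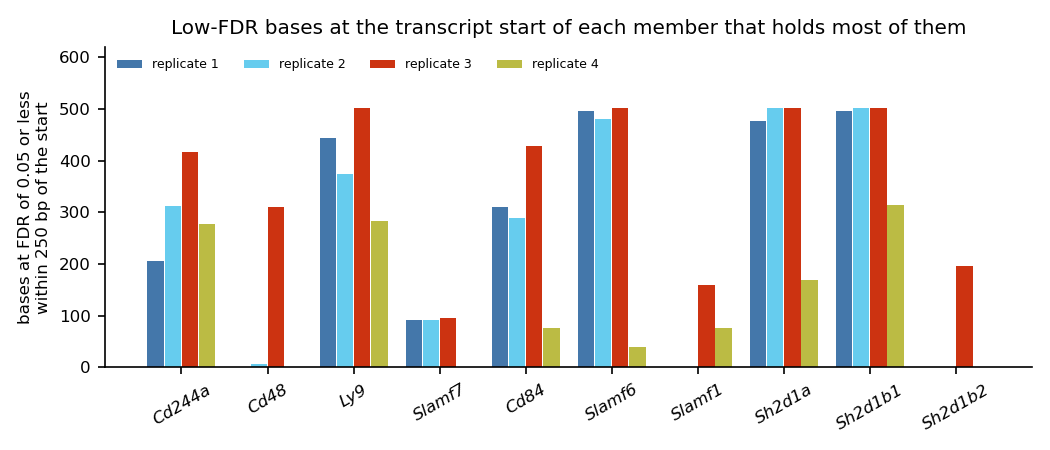
Bases with an FDR of 0.05 or less within 250 bp of the annotated transcript start that holds most of them (vertical axis, 501 bases possible), 1 bar per library, a missing bar standing for 0. Sh2d1b1, Slamf6 and Sh2d1a hold 476 or more in each of replicates 1 to 3, and Cd48, Slamf1 and Sh2d1b2 hold at most 6 in replicates 1 and 2.

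The member loci held 206 merged footprints, of which 25 were found in at least 3 libraries and 13 in all 4. All 25 lay inside regions, with a median length of 26 bp. A recurrent footprint was present in 15 of the 30 recurrent regions (50%), against 67.4% of all recurrent regions. By assignment the genes with the most were Sh2d1b1 with 6 and Sh2d1b2 with 4. However, all 4 of Sh2d1b2 lay in the Uhmk1 promoter region, and 4 of the 6 of Sh2d1b1 lay in the Gm6345 region. The other 2 of Sh2d1b1 lay in its upstream region. Ly9, Slamf7 and Cd48 had 3 each, and Slamf1 had none.

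Motif matches are letters in a window and do not show that a factor binds. AP-1 matches were in 7 of 30 recurrent member regions (23.3%), against 9.50% of all 36595 recurrent regions, and included the starts of Cd244a, Ly9, Slamf6 and Sh2d1b1. The AP-1 match at the Cd244a start was touched by a footprint in 1 library, and no other AP-1 match was touched in any. The 7 include the wide Slamf6 regions of 680 and 859 bp, where a match is easier to find than in the median width of 260 bp. T-box (AGGTGTGA) was in 2, both near Cd84 (6.67% against 2.05%), RUNX in 4 (13.3% against 10.1%), ETS (AGGAAGT) in 4 (13.3% against 15.1%) and IRF in 4 (13.3% against 8.23%). At least 1 of RUNX, ETS and T-box was in 8 regions (26.7%), against 24.2%. TATA was in 5 (16.7% against 6.68%), TCF (CTTTGAT) in 3 (10% against 3.12%), KLF in 4 (13.3% against 17.7%), STAT (TTCNNNGAA) in 2 (6.67% against 7.31%) and the GATA motif, searched as AGATAAG, and the CCAAT box in 1 each (3.33% against 2.52% and 5.97%). The E-box CAGCTG was in 3 (10% against 20.2%), and neither CREB (TGACGTCA, 2.09% of all) nor the short CTCF form (AGNGGGCGC, 7.45% of all) was found. The longer CTCF consensus matched in 2 member regions (6.67%), in the Sh2d1a distal region and upstream of Ly9 at chr1:171610225-171610236, against 9.44% of all. Within the central 150 bp, which 28 member regions were long enough to fill, AP-1 was in 3 (10.7% against 5.10%), RUNX in 3 (10.7% against 5.91%), TATA in 1 (3.57% against 3.13%), TCF in 1 (3.57% against 1.53%) and T-box in none (against 1.20%). With 30 regions, 1 region more or less moves a share by 3.33 percentage points.

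Replicate 3 was highest in 20 of the 23 member regions found in all 4 libraries (87%), against 77.2% of all such regions. Its signal over the mean of the other libraries had a median of 1.82 in these 23 regions, ranging from 0.895 to 3.45, against 1.48 over all such regions. Split by place, the medians were 1.83 for 15 distal and 1.66 for 8 promoter regions of the member loci, against 1.59 and 1.40. The 8 include both Uhmk1 promoter regions, with ratios of 1.25 and 1.21. At the starts of the members themselves the ratio was 2.94 for Sh2d1b1, 2.24 for Cd244a and 2.18 for Cd84. It was 1.78 for Ly9, 1.53 for Sh2d1a and 0.908 for Slamf6, so distal regions were not plainly above member starts. The ratio was 3.45 and 3.44 at the upstream Sh2d1b1 regions, 3.24 at the first Cd244a intronic region and 2.94 at the Sh2d1b1 start, and it was 0.908 and 0.895 at the Slamf6 regions. The third region not highest in replicate 3 was the weaker Uhmk1 region. Across whole loci, replicate 3 had 52 peaks, 139 footprints and 19614 low-FDR bases, and replicates 1, 2 and 4 had 27 to 41 peaks, 44 to 78 footprints and 6411 to 11275 low-FDR bases.

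**Figure D5:**
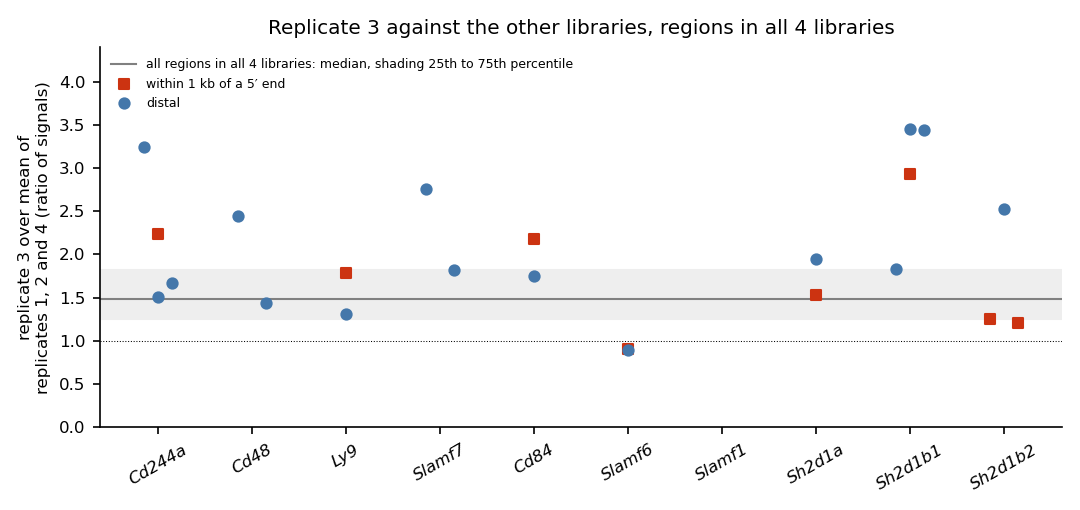
Signal of replicate 3 divided by the mean of replicates 1, 2 and 4 (vertical axis, a ratio) for each member region found in all 4 libraries, squares being within 1 kb of an annotated 5′ end and circles distal; the grey line is the median of all such regions, 1.48, and the shading its 25th to 75th percentile. Slamf6 points lie below 1, and points of Sh2d1b1 and Cd244a exceed 2.9. Slamf1 has no such region, and the squares of Sh2d1b2 lie at the Uhmk1 5′ end.

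The summed markers of NK, myeloid, erythroid and megakaryocyte, and stem and progenitor cells were likewise highest in replicate 3, B cell markers were lowest in it, and T cell markers were highest in replicate 2. Summed over 10 NK marker genes, the start signal was 16.8, 19.2, 49.3 and 14.6 in replicates 1 to 4, with a peak at 6, 7, 10 and 5 of the 10. Over 10 B cell markers it was 5.91, 11.7, 3.66 and 9.50, with peaks at 6, 8, 4 and 8 genes and none in any library at Fcer2a. Over 10 T cell markers it was 1.93, 3.00, 2.74 and 1.83, with no peak in any library at Cd3e, Cd3d, Cd6, Cd28, Cd4, Cd8a and Cd8b1. Over 10 myeloid markers it was 3.93, 4.85, 9.64 and 4.83, with none at Lyz2, Csf1r, Cd14, Adgre1, Mpo, Elane and S100a8. Over 10 erythroid and megakaryocyte markers it was 3.50, 3.30, 5.24 and 1.55, and over 8 stem and progenitor markers 5.46, 6.32, 8.02 and 4.49. The 10 SLAM and SAP genes summed to 6.92, 7.60, 15.3 and 6.46. B cells, T cells and myeloid cells use SLAM receptors too, and the part of other cells in the members' values was not tested.

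Of 20 genes that carry the signal of these receptors, 16 had a recurrent region at the 5′ end, against 50.3% of all protein-coding genes. The other 4, Src, Ptpn6, Csk and Bcl10, had no peak there in any library. For the signalling and marker lists, only the annotated 5′ end of each gene was used. Peaks more than 1 kb from it were not counted, even at another transcript start. The highest were Cbl, a ubiquitin ligase that dampens receptor signalling, with 10.8, 12.6, 14.7 and 10.7, and its relative Cblb with 11.8, 13.8, 11.1 and 7.14. Malt1, the protease of the pathway from protein kinase C to NF-kB, had 7.42, 9.94, 15.4 and 9.82. Fyn, the kinase bound by SAP, had 6.29, 7.97, 8.26 and 6.23, a mean of 7.19 ± 1.08 (SD, n = 4), while the Sh2d1a start itself stayed at or below 1.25. The Sh2d1a start was CpG-poor, with a ratio of 0.232, and the signalling genes were not matched to the members or the background by CpG content. Summed over the list the values were 58.6, 75.1, 86.7 and 58.5, highest in replicate 3 as for the members. The divergent family genes Slamf8 and Slamf9 had no peak at the 5′ end in any library.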

How the data were processed

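NK cell libraries, 4 in 1 group, were analysed from files that the authors had made separately for each library from alignments to mm10, per the deposited readmes. For the aligner, callers and settings the sources used here give nothing. The deposited peak lists give a signal value per peak, whose unit and scaling are not stated. The longer of each library's 2 lists was used. The deposited per-base FDR values, treated as q-values, are listed only below 0.05. The authors' footprints carry a constant 0.01 in the p-value column, so no stricter set could be made.

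Peaks that touched or overlapped by 1 bp were merged across libraries, and so were footprints. Genes and transcripts came from GENCODE vM21 on GRCm38.p6, and sequences from the RefSeq assembly of GRCm38.p6. A shared region was assigned to the gene it overlapped, otherwise to the nearest transcript start. The start signal of a gene is its highest peak signal within 1 kb, 0 without a peak. Sequences shown hold at most 300 bases and no annotated untranslated region, and near-copies were found by local alignment.

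Named were all 10 members, up to 3 of the strongest recurrent regions per locus, every recurrent region at a transcript start, the 4 strongest and all peakless genes of the signalling list, and neighbouring genes with a recurrent region at their 5′ end. The paired Sh2d1b copies, the Uhmk1 sequence and the longer CTCF consensus were added after their values had been seen. Members and lists were chosen with earlier results of these data known. Merging, start calls and motif search were tested on simulated data. Alternatives were the shorter list, other library minimums, windows and flanks, equal peak numbers, stricter FDR, median-scaled signal and leaving out each library. Python 3.11.15, pandas 2.3.3, numpy 2.4.6 and Biopython were used. The value of 1 marker gene is not reported here.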

Additional observations from a re-analysis of the deposited data

Results flagged for a closer look

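Of 34 values with 4 libraries each, 8 had 1 library whose gap to the nearest other took up more of the group's whole range than Dixon's critical value for 4 samples allows, a limit that chance passes in about 1 of 20 groups. The values come from the same 4 libraries and are not independent. In 6 of the 8 the library apart was replicate 3 and high. These were the start signal of Cd244a (2.58), the start signal of Sh2d1b1 (4.20), the regions chr1:170270561-170271040 (3.79) and chr1:170273281-170273580 (1.73) upstream of Sh2d1b1, the intronic Cd244a region chr1:171561821-171562140 (4.61) and the region chr1:171677801-171677980 upstream of Cd48 (1.56). In the other 2 it was replicate 4 with no peak, a value of 0: the alternative Slamf7 start chr1:171648782-171649006 and the region chr1:171966221-171966360 downstream of Slamf6. Replicate 4 had the fewest peaks of the 4 libraries and replicate 3 the most, and the part of library size in these values was not tested.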

How the results depend on the processing

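The results are counts, signals and a ratio of signals, which cannot be negative, so no change of sign was possible. The count of 6 members with a recurrent start region was 5 to 9 under the alternatives, 6 to 8 with each library left out, when recurrent meant at least 2 of the 3 left. Without replicate 1 Slamf1 and Cd48 were added, without replicate 2 Slamf1 and without replicate 4 Cd48. The 30 recurrent regions became 53 with a peak in at least 1 library and 16 in gene bodies alone, and the 22 distal ones became 39 and 10, and 13 with the shorter peak list. The first of these settings admits more regions and the others fewer by construction. The 25 recurrent footprints became 13 in all 4 libraries, 206 in at least 1, 14 when each had to cover 50% of the merged footprint, and 38 to 49 with a library left out, each count following from the looser or stricter rule. The median ratio of replicate 3 to the other libraries in recurrent member regions, 1.83, became 1.23 after scaling each library by its median and 2.20 with the shorter list, and the cause was not tested. Regions with a RUNX, ETS or T-box match fell from 8 to 5 in the central 150 bp, a shorter window. The mean start signal of Slamf6 was 0.365 with the shorter list, and that of Slamf7 was 0.508 when every transcript start was used. The Sh2d1b2 start had no peak without replicate 3. The unknown read depth and unstated signal scaling limit every comparison between libraries.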
